A study of Mus musculus with 11 samples.

Results

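C1 and pan were compared with each other in the corneas of female C57BL/6J mice that had spent 5 days under desiccating stress (DS5), a mouse model of dry eye disease in which an air draft, low humidity and scopolamine in the drinking water dry the ocular surface. During those days the mice received eye drops of C1 (10 µM, 4 samples), of pan (10 µM, 4 samples) or of vehicle (phosphate-buffered saline, 3 samples) on both eyes, 2 times a day. C1 is a partial agonist of the receptor tyrosine kinase TrkC, and pan is an agonist of TrkA, TrkB and TrkC. All 248 genes of the NanoString mouse Inflammation panel that the tables hold were used, in 8 of the 11 samples of the study, and the vehicle samples are given beside them as the level without an agonist. This is 1 pair of compounds at matched dose and time. An age label gives 3 months for every sample, and a second age label, given below, differs between samples. The question was whether corneas treated with the TrkC-selective agonist and with the agonist of all Trk receptors differed in inflammatory transcripts.

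Trk receptors bind the neurotrophins: nerve growth factor binds TrkA, brain-derived neurotrophic factor binds TrkB and neurotrophin-3 binds TrkC. Bound receptors signal through adaptor proteins to Ras and the ERK kinases, through phosphoinositide 3-kinase and through phospholipase C. The cornea is densely innervated, and neurotrophins maintain its nerves and epithelium. Drying of the ocular surface is known to activate stress kinases and NF-kB in the corneal epithelium, which then releases interleukin 1, chemokines and matrix metalloproteinases, while resident macrophages and dendritic cells take up debris, present antigen and make complement proteins.

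Levels are given as log2 normalized counts: the panel counts single probe molecules, and the authors scaled the counts of every sample by housekeeping genes. The total over the 248 genes ranged from 165828 to 525997 counts in the C1 samples and from 64156 to 101351 in pan replicates 1 to 3, while pan replicate 4 had 646446. In pan replicates 1 to 3, 60 to 85 genes stood at 3 counts or fewer, near the lowest value of 1 count. This held for 0 genes in pan replicate 4 and for 1 to 26 in the C1 samples. A second age label follows nearly the same line: it reads 2 to 3 months for pan replicates 1 to 3 and for vehicle and 22 to 24 months for pan replicate 4 and all C1 samples, although another label gives 3 months for every sample. The study's methods give the age of the mice in weeks, all below 3 months. Treatment, depth and the second age label therefore cannot be told apart in 3 of the 4 pan samples, and values from pan replicate 4 alone are given beside many of the differences. The labels call the samples corneal epithelium, but the panel holds 0 keratin genes, so that this could not be checked. In bulk samples such as these, fewer cells of a type and less RNA per cell cannot be told apart.

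Few genes differed between the 2 groups by more than the spread of 4 samples each. By limma with Benjamini-Hochberg adjustment over all 248 genes, 1 gene (0.403% of those tested) passed an adjusted p of 0.05, the low-count gene Pik3c2g. Without adjustment, 34 genes (13.7%) had a p under 0.05 with higher values in C1-treated corneas and 4 genes (1.61%) had one with lower values. The median difference, C1 minus pan, was 0.23 on the log2 scale over all genes, 0.13 over the 131 well-detected genes (mean log2 value of 5 or more) and 0.45 over the 117 genes below it. Of all 248 genes, 181 (73.0%) were higher in the C1 samples, and of the low genes 97 of 117. Centring each sample on the median of the well-detected genes moved the median of all genes by 0.14, and the genes with an unadjusted p under 0.05 went from 34 higher and 4 lower (89.5% higher) to 14 higher and 9 lower (60.9% higher).

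**Figure D1:**
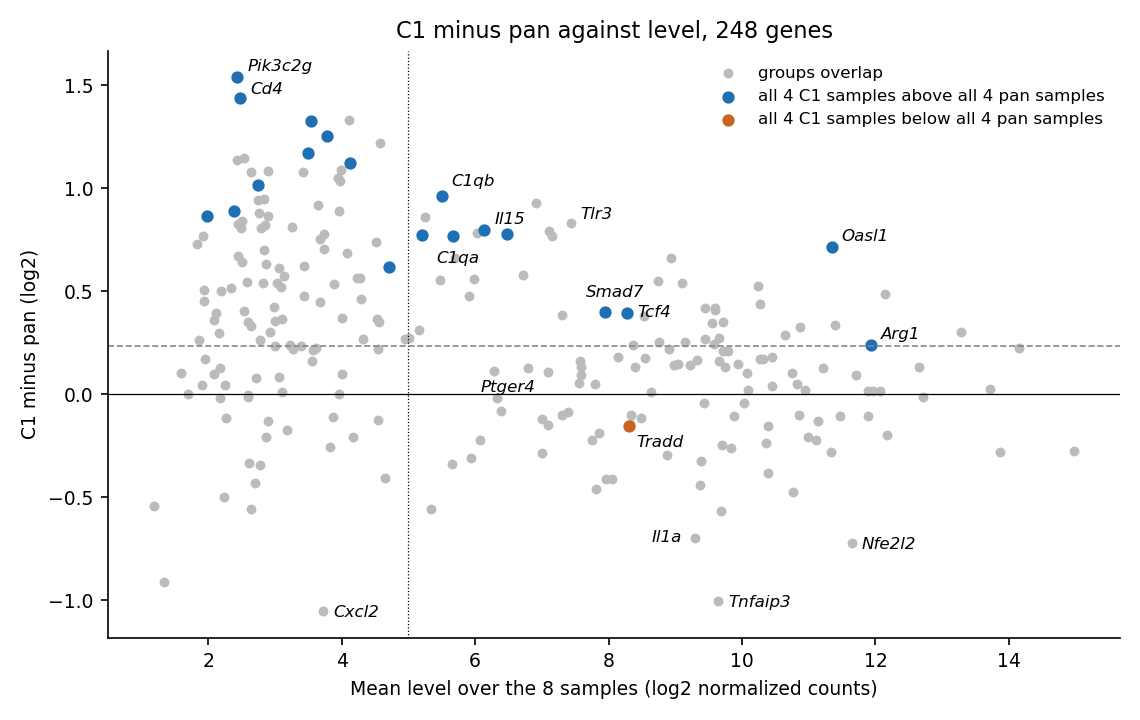
Difference between C1-treated and pan-treated corneas (C1 minus pan, log2) against the mean log2 normalized count over the 8 samples, with 1 point per gene (248 genes). Blue points mark the 19 genes whose C1 samples all lay above the pan samples, the orange point marks Tradd, which lay below, the dotted line stands at a mean of 5 and the dashed line at the median difference of 0.23. Large positive differences lie mostly left of the dotted line, where counts are few.

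The 95% interval of the difference lay within 1 log2 unit, that is within 2-fold either way, for 106 of the 248 genes (42.7%) and for 87 of the 131 well-detected genes (66.4%). Every C1 sample lay above every pan sample for 19 genes (7.66%), and every C1 sample lay below for 1 gene (0.403%), Tradd. Of the well-detected genes, 9 (6.87%) were higher without overlap: Il15, Oasl1, C1qa, C1qb, C1s, Tgfb3, Smad7, Tcf4 and Arg1. With 4 samples against 4, the two-sided exact permutation test cannot give a p below 0.0286, which is the value of all 20 of these genes. After centring, 8 genes were higher and 4 lower without overlap, of which 6 were among the 20 (Il15, Oasl1, Cd4, Pik3c2g, C8a and Ptgfr). The other 7 of the 9 well-detected genes (C1qa, C1qb, C1s, Tgfb3, Smad7, Tcf4 and Arg1) then overlapped, as did Tradd, and the 4 lower genes were Csf2, Ptk2, Relb and Ripk2.

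Il15 (gene ID 16168) encodes interleukin 15, a cytokine that sustains natural killer cells and memory CD8 T cells. Its log2 levels were 6.41, 6.52, 6.57 and 6.63 in the C1 samples, 5.61, 5.93, 5.62 and 5.79 in the pan samples, and 6.05, 6.01 and 6.27 with vehicle. The C1 samples were all above, and the pan samples all below, the vehicle samples. The mean normalized count was 92.8 ± 5.76 (SD, n = 4) after C1 and 53.6 ± 5.80 (SD, n = 4) after pan. Vehicle-treated corneas had 69.3 ± 6.97 (SD, n = 3). C1 was 1.74-fold higher than pan, with a 95% interval of 1.33 to 2.27. The difference of 0.80 (standard error 0.17) missed the threshold over all genes (adjusted p = 0.150 from limma) and passed when only the well-detected genes were fitted (1 of 131 genes, 0.763%, adjusted p = 0.0313). Pan replicate 4 alone gave a difference of 0.74, and total count as a covariate one of 0.73. Leaving out any 1 sample moved it between 0.75 and 0.86.

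Oasl1 (gene ID 231655), an interferon-stimulated member of the oligoadenylate synthetase-like family, was the most abundant of the 10 genes with the smallest p. The C1 samples had log2 levels of 11.58, 11.85, 11.73 and 11.65 against 10.61, 11.12, 11.22 and 11.01 in the pan samples and 11.33, 11.06 and 10.94 with vehicle. All C1 samples were above both other groups, while pan and vehicle overlapped. The difference from pan was 0.71 (standard error 0.20, adjusted p = 0.256 from limma), or 1.64-fold with a 95% interval of 1.21 to 2.23. It was 0.69 against pan replicate 4 alone, 0.67 with total count as a covariate and between 0.59 and 0.79 when 1 sample was left out.

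Differences of the other interferon genes were mixed in sign. The 19 interferons and interferon-stimulated genes of the panel had a median difference of 0.14, which centring moved to 0.00, and Oasl1 was the 1 member with an unadjusted p under 0.05. Irf1, a transcription factor induced by interferon gamma, differed by 0.13 (95% interval -0.26 to 0.53), an interval within 2-fold. For the antiviral gene Ifit1 the interval was wide, from -1.27 to 0.98. Its levels spread over 7.16 to 8.87 within the C1 samples and over 7.63 to 9.46 within the pan samples.

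**Figure D2:**
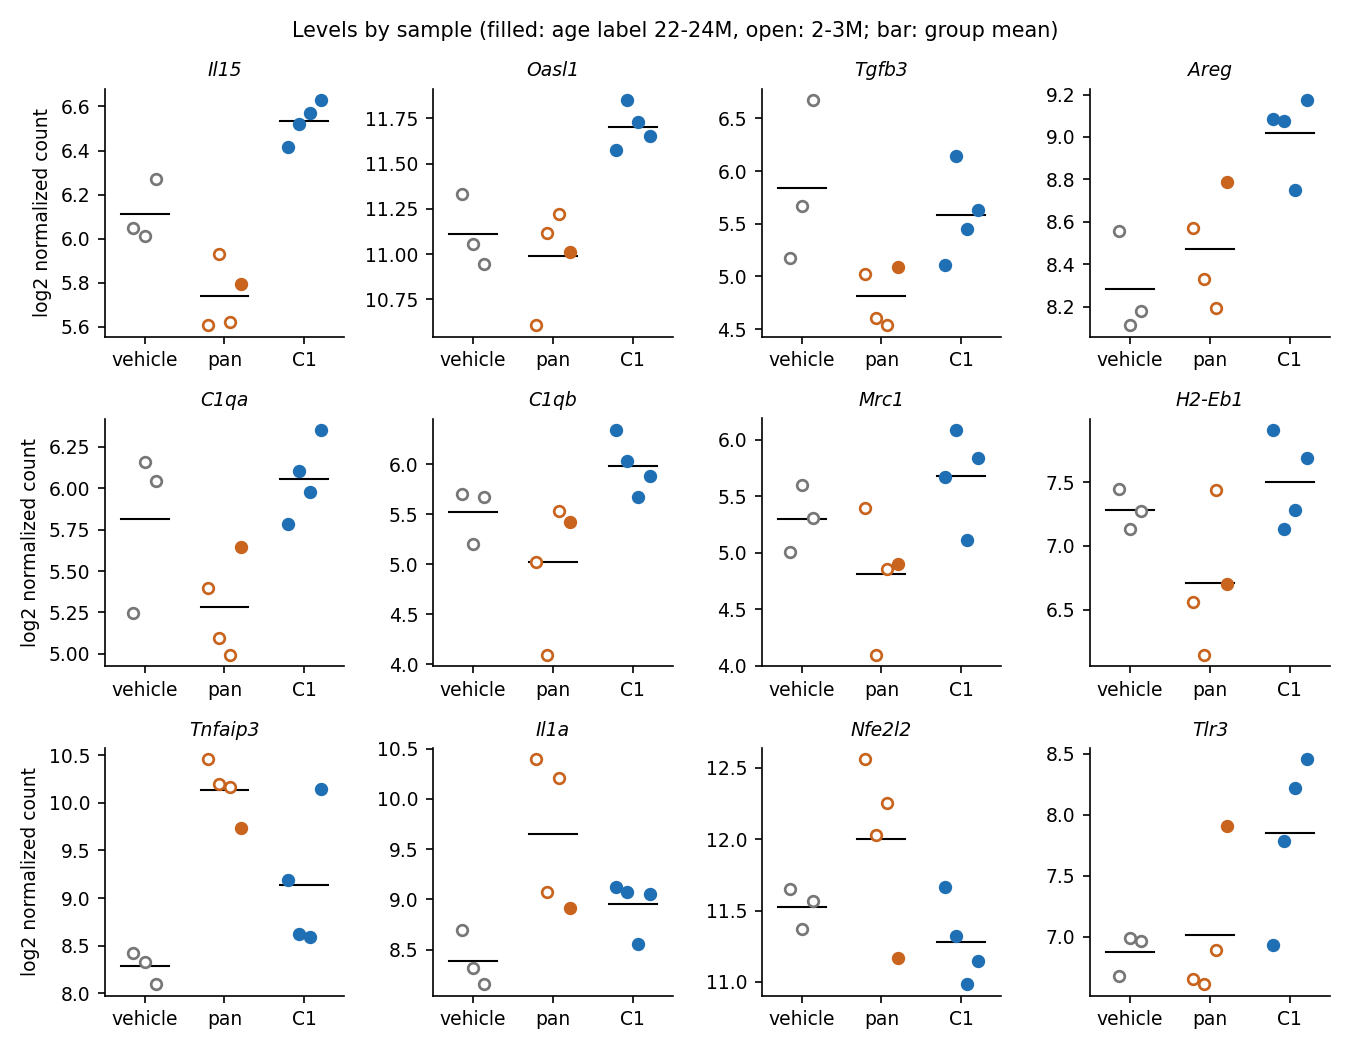
Log2 normalized counts of 12 genes in each sample of the vehicle, pan and C1 groups, with the group mean as a bar. Filled points carry the age label 22 to 24 months (22-24M) and open points 2 to 3 months (2-3M). Il15 and Oasl1 separate C1 from all pan samples, whereas for Tlr3, Il1a and Nfe2l2 the 1 filled pan sample, replicate 4, lies among or near the C1 samples.

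Of the genes of macrophages and of complement, 0 passed the adjusted threshold of limma. Each of the 13 genes for macrophages and antigen presentation had a positive difference, with a median of 0.45 against 0.23 for all genes, and it was 0.31 after centring, where the median of all genes was 0.10. Of these 13 genes, 2 had an unadjusted p under 0.05, Mrc1 and H2-Eb1, a share of 15.4% beside 15.3% of all genes. Over the 22 complement and acute phase genes the median was 0.55, with 20 higher (90.9%, beside 73.0% of all genes), 8 with an unadjusted p under 0.05 (36.4%, beside 15.3% of all genes) and 5 without overlap (22.7%, beside 8.06% of all genes).

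C1qa (gene ID 12259) and C1qb (gene ID 12260) encode chains of C1q, which starts the classical complement pathway and is made mainly by macrophages. C1qa had log2 levels of 5.78, 6.10, 5.98 and 6.35 with C1, 5.40, 5.09, 4.99 and 5.64 with pan and 5.25, 6.16 and 6.04 with vehicle. For C1qb the levels were 6.34, 6.03, 5.67 and 5.88 with C1, 5.02, 4.09, 5.53 and 5.42 with pan, and 5.70, 5.20 and 5.67 with vehicle. In both genes the C1 and pan samples did not overlap as deposited but overlapped after centring, and the vehicle samples overlapped both groups. The differences were 0.77 for C1qa (95% interval 0.27 to 1.27, adjusted p = 0.256 from limma) and 0.96 for C1qb (95% interval 0.21 to 1.71, adjusted p = 0.256 from limma). Against pan replicate 4 alone they were 0.41 and 0.56. C1s, the serine protease of the same complex, differed by 0.78 (95% interval 0.06 to 1.5), and C2, the protein it cleaves, by 0.62 (95% interval 0.08 to 1.15). Against pan replicate 4 alone these were 0.54 and 0.38.

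Mrc1 (gene ID 17533), the mannose receptor of tissue macrophages, had log2 levels of 5.67, 6.09, 5.11 and 5.83 with C1 and 5.40, 4.09, 4.86 and 4.90 with pan, and C1 replicate 3 fell below pan replicate 1. Its difference of 0.86 (95% interval 0.14 to 1.59, adjusted p = 0.272 from limma) was 0.77 against pan replicate 4 alone. H2-Eb1 (gene ID 14969), an MHC class II chain, had levels of 7.91, 7.13, 7.28 and 7.69 with C1 against 6.56, 6.15, 7.44 and 6.70 with pan, with pan replicate 3 inside the C1 range. The difference was 0.79 (95% interval 0.09 to 1.49), and 0.81 against pan replicate 4 alone. For Tyrobp, an adaptor of myeloid receptors, the groups overlapped and the difference of 0.66 had an interval of -0.13 to 1.46 and was 0.41 against pan replicate 4 alone. Arg1, which encodes arginase 1, stood apart without overlap as deposited, but its difference was 0.24 (95% interval -0.18 to 0.66), since pan replicate 1 lay at 11.44 and the other pan samples at 11.91 to 11.95.

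The summed normalized counts of 7 macrophage markers (Tyrobp, Trem2, Cd163, Mrc1, Itgb2, C1qa and C1qb) were 307, 330, 243 and 327 in the C1 samples and 175, 144, 209 and 205 in the pan samples, with a range of 186 to 293 for vehicle. The pan sum was below the C1 sum in every pair of samples, and the vehicle sums overlapped both groups. All 7 markers had a positive difference, 4 of them were well detected, and Trem2 was at the floor in pan replicates 1 to 3. The sums of 3 T cell markers (Cd4, Cd40lg and Fasl) were 20.6 to 30.7 with C1, 13 to 17.4 with pan and 19.7 to 26 with vehicle, but Cd4 and Fasl had 1 count in pan replicates 1 and 3. The markers of neutrophils (Cxcr1 and Cxcr2), endothelium (Flt1) and muscle (Myl2) overlapped between C1 and pan. The part of cell composition in the differences of other genes was not tested.

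**Figure D3:**
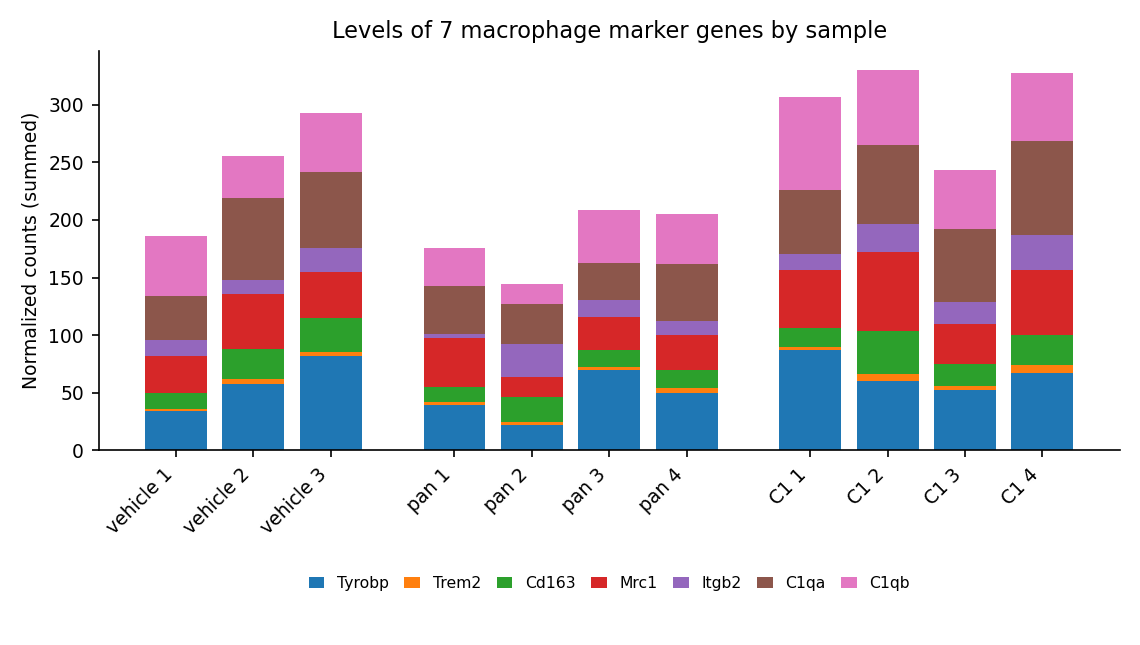
Summed normalized counts of 7 macrophage marker genes in each sample, stacked by gene, with the axis from 0. The 4 pan samples reach 144 to 209, below the 243 to 330 of the C1 samples, while the 3 vehicle samples (186 to 293) overlap both.

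Among well-detected genes the lowest difference was that of Tnfaip3 (gene ID 21929), which encodes A20, a ubiquitin-editing enzyme that limits NF-kB signalling downstream of TNF receptors and Toll-like receptors. The log2 levels of Tnfaip3 were 10.46, 10.2, 10.16 and 9.74 in the pan samples, 9.19, 8.62, 8.59 and 10.14 in the C1 samples and 8.43, 8.32 and 8.09 with vehicle. C1 replicate 4 lay among the pan samples, and the other C1 samples lay between the pan and vehicle groups. Mean normalized counts of Tnfaip3 were 624 ± 350 (SD, n = 4) after C1 and 1145 ± 226 (SD, n = 4) after pan. The difference, C1 minus pan, was -1.0 (95% interval -1.81 to -0.19, adjusted p = 0.260 from limma), so that pan was 2.00-fold higher. Without C1 replicate 4 it was -1.34, and against pan replicate 4 alone it was -0.60.

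Cxcl2 (gene ID 20310) and Cxcl1 (gene ID 14825), neutrophil-attracting chemokines that are textbook NF-kB targets like Tnfaip3, leaned the same way with few counts. Cxcl2 had log2 levels of 4.28, 4.09, 3.86 and 4.76 with pan, 2.78, 2.81, 3.05 and 4.15 with C1 and 2.00, 3.20 and 2.72 with vehicle. Once more, C1 replicate 4 was the C1 sample that reached the pan range. The difference for Cxcl2 was -1.05 (95% interval -1.83 to -0.27, adjusted p = 0.256 from limma), and -1.56 against pan replicate 4 alone. For Cxcl1 the pan samples had levels of 5.79, 5.61, 5.24 and 5.82, C1 replicates 1 to 3 had 4.55, 4.13 and 4.25, and C1 replicate 4 had 7.29. With it the difference was -0.56 (95% interval -2.02 to 0.91), and without it -1.30. Cxcl3, a related chemokine, was higher with C1 by 0.89 (0.59 against pan replicate 4 alone), but 3 of its pan samples had at most 3 counts. Other known NF-kB targets of the panel did not lean the way of Cxcl2. Tnf overlapped between the groups, at 5.89, 6.49, 6.83 and 8.24 with C1 and 5.40, 7.59, 5.78 and 8.15 with pan. Il6 and Ccl20 were higher with C1 by 0.37 and 0.22, with few counts.

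The promoters of these genes hold short matches to an NF-kB motif, and they are shown because Tnfaip3 and Cxcl2 were the 2 genes of the panel that were lower with C1 by at least 1 log2 unit, with Cxcl1, the neighbour of Cxcl2, beside them. The motif searched was GGGNNTTTC on both strands (N is any base), in RefSeq promoters on GRCm38.p6, over the 250 bases before the start site. Capitals mark the matches, which in places are on the opposite strand and then read as the reverse complement. The Tnfaip3 stretch lies at chr10:19015411-19015580 (minus strand), that of Cxcl1 at chr5:90891135-90891194 and that of Cxcl2 at chr5:90903780-90903841 (both plus strand).
Tnfaip3: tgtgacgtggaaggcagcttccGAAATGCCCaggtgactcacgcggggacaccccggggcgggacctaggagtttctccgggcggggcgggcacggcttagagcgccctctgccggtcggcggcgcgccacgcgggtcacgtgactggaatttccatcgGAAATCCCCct
Cxcl1: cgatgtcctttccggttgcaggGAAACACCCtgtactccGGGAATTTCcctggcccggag
Cxcl2: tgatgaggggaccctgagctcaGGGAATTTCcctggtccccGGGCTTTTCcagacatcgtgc
A match is found in 3.72% of all 32851 promoters and in 13.1% of the 229 promoters that matched 183 of the panel's genes. The 29 panel genes with a match had a median difference of 0.17, with 17 higher and 12 lower in C1-treated corneas, beside a median of 0.18 for the 183 genes. Thus 41.4% of the genes with a match were lower with C1, beside 31.1% of the 183 genes. The 12 lower genes include Tnfaip3, Cxcl1 and Cxcl2, which were chosen with their differences known, so these shares are a description and no test.

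Among the 12 genes of A20 and NF-kB signalling, 9 were lower with C1 (75%, beside 27.0% of all genes), and the median difference was -0.14 against 0.23 for all genes. It was -0.28 after centring and -0.01 against pan replicate 4 alone. Besides Tnfaip3, 0 of the 12 had an unadjusted p under 0.05 (8.33% with it, beside 10.7% of well-detected genes). Intervals lay within 2-fold for 9 (75%, beside 66.4% of well-detected genes). Tradd, an adaptor of TNF receptor 1, did not overlap between the groups, with levels of 8.15 to 8.30 with C1 and, starting just above this, of 8.30 to 8.44 with pan. The groups overlapped after centring, and the difference was -0.15 (95% interval -0.51 to 0.20). Rela, the NF-kB p65 subunit, differed by -0.47 (95% interval -1.12 to 0.17), and by 0.22 against pan replicate 4 alone. Nfkb1, the p50 precursor, differed by 0.04 with an interval of -0.34 to 0.42, and by -0.10 after centring.

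**Figure D4:**
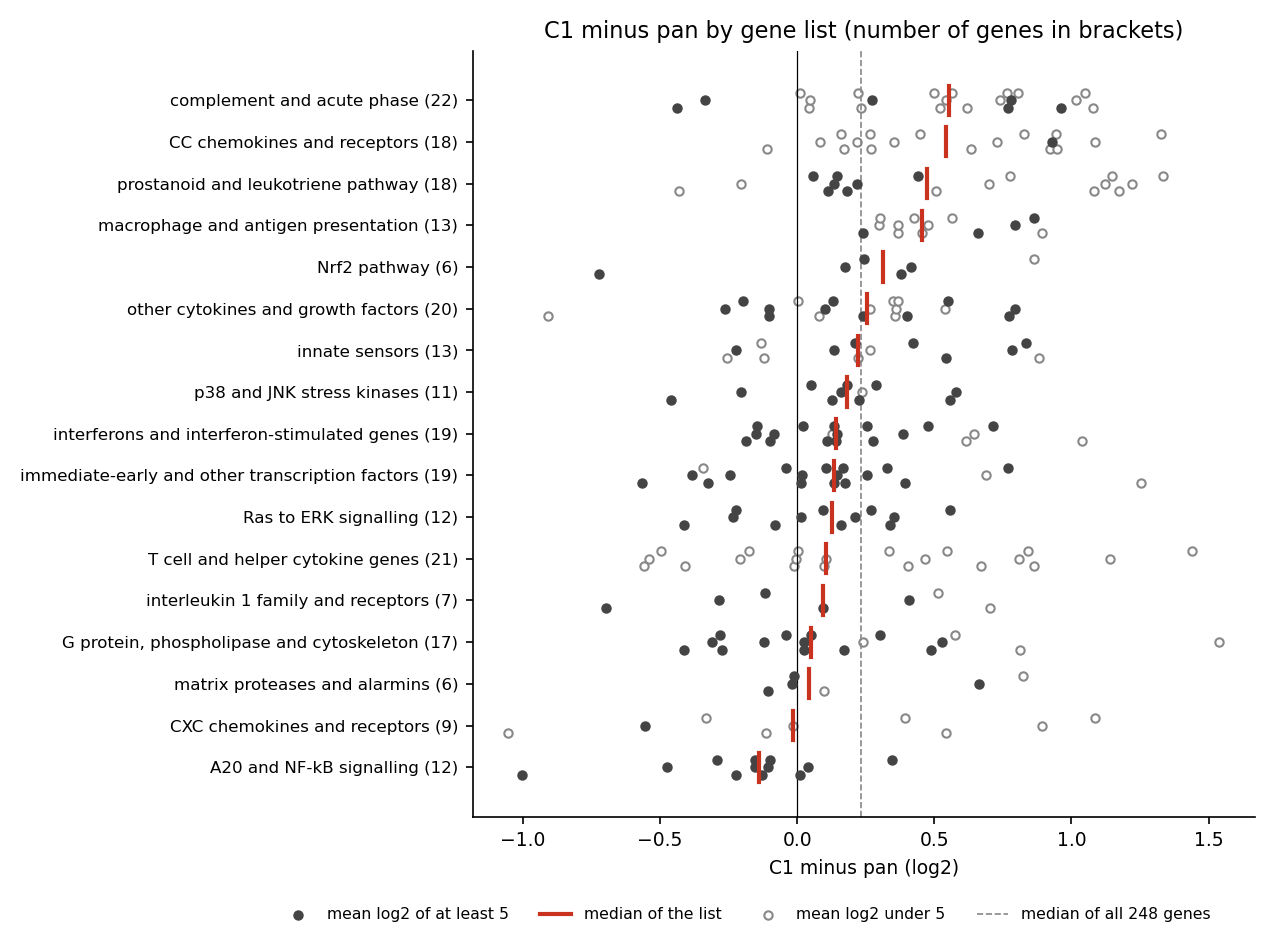
Difference between C1 and pan (C1 minus pan, log2) of each gene in 17 lists by function, with the number of genes in brackets. Filled points are well-detected genes, open points have a mean log2 value under 5, red bars are list medians and the dashed line is the median of all genes (0.23). Complement genes lie furthest to the right (median 0.55), with 6 of 22 well detected. A20 and NF-kB genes lie furthest to the left (median -0.14).

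The differences of the genes for interleukin 1 alpha and Nrf2 were negative against all 4 pan samples and positive against pan replicate 4. Il1a (gene ID 16175), an alarmin of the epithelium, had log2 levels of 10.40, 9.07, 10.21 and 8.91 with pan and 9.12, 9.07, 8.56 and 9.05 with C1, so that pan replicates 2 and 4 lay inside the C1 range. The difference was -0.70 (95% interval -1.53 to 0.14) and 0.04 against pan replicate 4 alone. Nfe2l2 (gene ID 18024), which encodes the oxidative stress factor Nrf2, had levels of 12.56, 12.03, 12.25 and 11.17 with pan and 11.67, 11.33, 10.98 and 11.15 with C1. Its difference of -0.72 (95% interval -1.43 to -0.01) turned to 0.11 against pan replicate 4 alone. Within the C1 samples, replicate 1, which has the lowest C1 total count, had the highest value of Nfe2l2, Rela (10.91), Cd55 (9.68), Daxx (8.0) and Cdc42 (15.10). These genes were picked after their values were seen. Of genes higher with C1, C1qb (6.34) and H2-Eb1 (7.91) also had their highest C1 value in replicate 1, and Il15 and Oasl1 did not. The cause was not tested. Cd55, Daxx and Cdc42 were lower with C1 by 0.44, 0.46 and 0.27, and higher against pan replicate 4 alone by 0.39, 0.10 and 0.19. The 7 genes of the interleukin 1 family and its receptors, Il1a included, had a median of 0.09, which turned to -0.04 after centring, and Il18, an abundant epithelial member, differed by 0.09 (95% interval -0.31 to 0.50; -0.04 after centring).

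The differences of Tlr3 and Tlr2 were much smaller against pan replicate 4 than against all 4 pan samples. Tlr3 (gene ID 142980), the sensor of double-stranded RNA, had log2 levels of 6.94, 7.78, 8.22 and 8.45 with C1 and 6.65, 6.61, 6.89 and 7.91 with pan. The order of the levels followed total count within the C1 samples, and pan replicate 4 lay above 2 of the C1 samples. Its difference of 0.83 (95% interval -0.08 to 1.75) was -0.06 against pan replicate 4 alone and 0.23 with total count as a covariate. For Tlr2, which senses bacterial lipopeptides, the difference of 0.78 (95% interval 0.08 to 1.49) was 0.11 against pan replicate 4 alone. Of the 13 innate sensors, 9 were higher with C1 (69.2%, beside 73.0% of all genes), and Tlr2 was the 1 gene with an unadjusted p under 0.05 (7.69%, beside 15.3%).

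The prostaglandin E2 receptor EP4, encoded by Ptger4 (gene ID 19219), did not differ detectably between the agonists. Its log2 levels were 6.10, 6.41, 6.26 and 6.58 with C1, 6.22, 6.50, 5.78 and 6.40 with pan and 5.59, 5.29 and 5.58 with vehicle. Both treated groups lay above all vehicle samples and overlapped each other. The difference of 0.11 had a 95% interval of -0.38 to 0.61, or 0.77-fold to 1.52-fold, and it was -0.03 after centring. In the prostanoid and leukotriene list 16 of 18 genes were higher with C1 (88.9%, beside 73.0% of all genes), with a median of 0.47. But the median of its 7 well-detected genes was 0.15, and that of the list was 0.06 against pan replicate 4 alone. Alox15, the lipoxygenase that starts lipoxin synthesis, differed by 0.44 (95% interval -0.17 to 1.05), and by 0.10 against pan replicate 4 alone. The prostanoid receptors Ptgfr and Ptgir were higher without overlap by 1.12 and 1.17 (0.52 and 0.54 against pan replicate 4 alone), each with 2 pan samples at no more than 3 counts.

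Among signalling genes downstream of Trk receptors, those of the Ras to ERK branch gave small differences, mostly with narrow intervals. Genes of the other Trk branches named above are not part of that list. Of the 12 genes from Ras to ERK, all well detected, 0 had an unadjusted p under 0.05, beside 10.7% of all well-detected genes. For 11 of them (91.7%, beside 66.4% of well-detected genes) the 95% interval lay within 2-fold. The median difference was 0.13 (-0.01 after centring). Map2k1, the kinase that phosphorylates ERK, differed by 0.02 (95% interval -0.37 to 0.40; -0.12 after centring), and Mapk3, an ERK kinase, by 0.34 (95% interval -0.19 to 0.87; -0.05 against pan replicate 4 alone). Elk1, a transcription factor that ERK phosphorylates, had the widest shift of the list at 0.56 (95% interval -0.08 to 1.19), and 0.08 against pan replicate 4 alone. These are transcript levels and do not measure kinase activity. The 11 genes of the p38 and JNK stress kinases had a median of 0.18, and Hspb1, the small heat shock protein downstream of p38, differed by 0.23 (95% interval -0.35 to 0.80; -0.13 against pan replicate 4 alone).

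Growth factor and matrix genes gave a few further differences. Areg (gene ID 11839), which encodes the epidermal growth factor receptor ligand amphiregulin, had log2 levels of 9.08, 9.07, 8.75 and 9.17 with C1 against 8.57, 8.33, 8.19 and 8.79 with pan, and the groups met only where C1 replicate 3 lay below pan replicate 4. The difference was 0.55 (95% interval 0.09 to 1.01, adjusted p = 0.272 from limma) and 0.23 against pan replicate 4 alone. Tgfb3 was higher with C1 by 0.77 (95% interval 0.18 to 1.37) at levels of 5.10 to 6.15 against 4.53 to 5.09, groups that overlapped after centring. Against pan replicate 4 alone the difference was 0.50, and vehicle spanned 5.17 to 6.67. Smad7, an inhibitor of TGF-beta signalling, was higher with C1 by 0.40 (95% interval 0.00 to 0.80), and by 0.16 against pan replicate 4 alone, and its groups overlapped after centring. Mmp3 (gene ID 17392), a metalloproteinase that degrades matrix, had levels of 9.23, 9.82, 8.6 and 9.42 with C1 and 8.57, 8.74, 8.72 and 8.38 with pan, a difference of 0.66 (95% interval 0.06 to 1.27) that was 0.88 against pan replicate 4 alone.

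The 1 gene past the adjusted threshold is among the low genes. Pik3c2g (gene ID 18705), a class II phosphoinositide 3-kinase, had 7, 11, 15 and 29 counts in the C1 samples and 1, 1, 1 and 14 in the pan samples. The log2 levels were 3.27, 2.95, 2.95 and 3.65 with C1 against 1.70, 1.29, 1.53 and 2.14 with pan, and 2.59, 1.2 and 3.30 with vehicle. The difference of 1.54 (95% interval 0.96 to 2.11, adjusted p = 0.0487 from limma) thus rests for the most part on 3 pan samples with 1 count each, and 1 count was the lowest value listed in the tables. Against pan replicate 4 alone it was 1.06. The adjusted p from limma was 0.174 after centring and 0.300 with total count as a covariate. Cd4, the coreceptor of helper T cells, had the same 1, 1 and 1 counts in pan replicates 1 to 3 and 18 in replicate 4, against 5 to 31 with C1, for a difference of 1.44 (95% interval 0.69 to 2.19), which was 0.69 against pan replicate 4 alone. Fasl, the death ligand of cytotoxic lymphocytes, differed by 1.14 (95% interval 0.38 to 1.90), and Ccl19, a chemokine that draws CCR7-bearing dendritic and T cells, by 1.33 (95% interval 0.39 to 2.26); against pan replicate 4 alone these were 1.67 and 0.82. Of the 10 low genes without overlap, 9 had a pan sample with at most 3 counts, and 5 had 3 such samples. At this depth a lower level could not have been measured in those samples.

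The 14 well-detected genes with an unadjusted p under 0.05 were followed across the settings that bear on depth and the age label. With log2 total count as a covariate all 14 kept their sign, and 13 kept at least 50% of their size. Against pan replicate 4 alone 13 kept their sign, the exception being Nfe2l2, and 10 kept at least 50% of their size. Il15, Oasl1, Mrc1, H2-Eb1 and Mmp3 moved least in that comparison, in which the pan group is 1 sample.

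**Figure D5:**
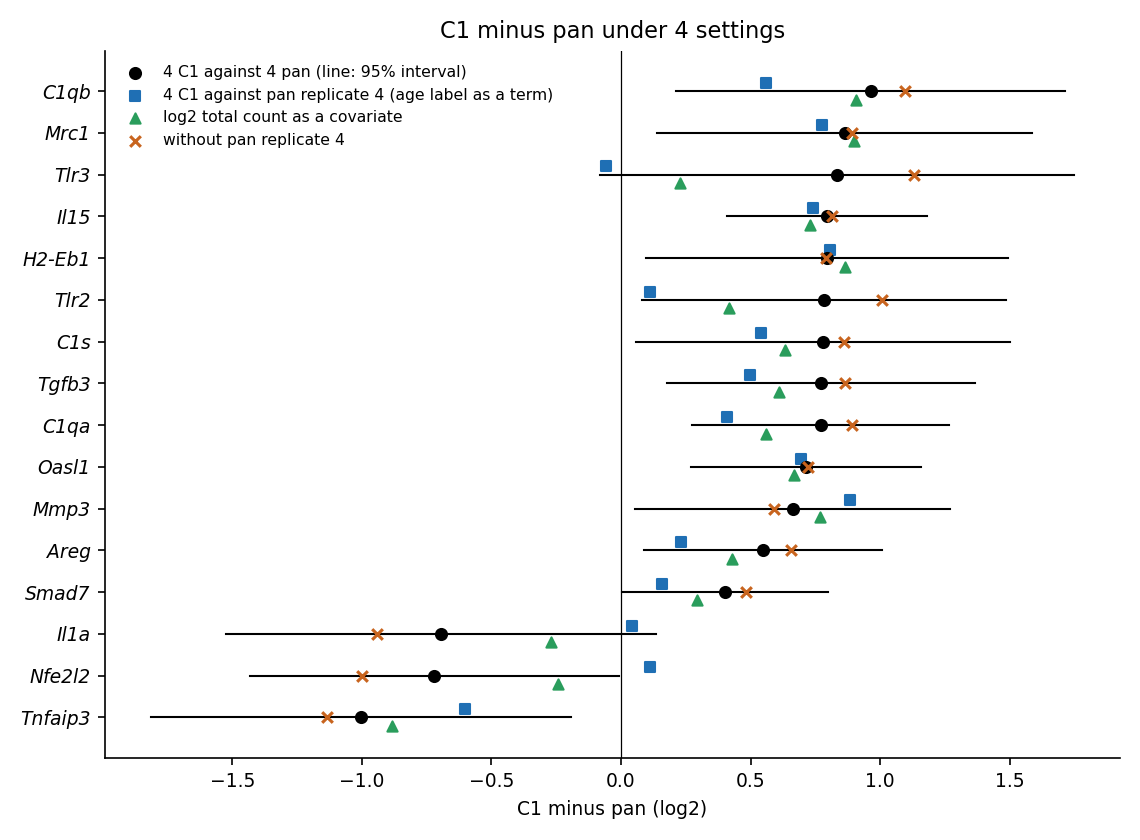
Difference between C1 and pan (C1 minus pan, log2) of the 14 well-detected genes with an unadjusted p under 0.05, and of Il1a and Tlr3, under 4 settings. Black points with lines are the 4 against 4 comparison with its 95% interval, blue squares compare C1 with pan replicate 4, green triangles use total count as a covariate, and orange crosses leave out pan replicate 4. Il15, Oasl1 and H2-Eb1 hardly move, whereas Tlr3, Tlr2, Il1a and Nfe2l2 move to 0.11 or closer to 0 against pan replicate 4.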

How the data were processed

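The authors counted mRNA probes in total RNA of mouse corneas on the NanoString nCounter platform (mouse Inflammation panel). Of 5 samples processed per group, they kept those that passed quality control. They scaled counts to the geometric mean of the housekeeping probes with ROSALIND and deposited log2 normalized counts per sample in 2 tables, one for each agonist with the vehicle samples. Whether a sample was 1 mouse or a pool is not given in the sources used here, so p-values measure the spread between these samples. The vehicle columns were identical in both tables, so C1 and pan share a scale. The tables also hold the authors' own log2 fold changes, p-values and adjusted p-values against vehicle, which were not used. All values of a sample were within 0.01 of whole multiples of 1 step (100% of values), from which counts were recovered. Intervals and floors from counts cover counting error only. The step was worth 0.432 to 1.38 normalized counts in the C1 samples, 2.44 to 3.25 in pan replicates 1 to 3 and 0.315 in pan replicate 4.

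The difference C1 minus pan was estimated with limma 3.58.1 in R 4.3.3 (lmFit, then eBayes) on the deposited log2 values of 248 genes, without filter, covariate or pseudocount, with Benjamini-Hochberg adjustment and a threshold of 0.05. The fit was tested on simulated data. Two-sided exact permutation tests over all 70 assignments, counts by list and figures were made in Python 3.11.15 (numpy 2.4.6, scipy 1.17.1, pandas 2.3.3, matplotlib 3.10.9). The 17 gene lists hold 243 genes. Members, lists and alternatives were chosen with earlier results of these data known. Genes named are the 10 with the smallest p, the next 5 that are well detected, 5 genes the study names against vehicle, and in each list the gene with the highest mean and the well-detected gene with the smallest p. Others were named after their values were seen. Of 248 genes, 247 have a gene ID, and all 247 were found in the RefSeq table (GRCm38.p6). The IDs listed for Crp, Elk1 and Nos2 belong to other genes there, and the symbols were kept.

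Alternatives were limma without moderation, with a mean-dependent or robust prior variance, median centring, a fit that includes the vehicle samples, well-detected genes only (a mean log2 value of 5 or more), 20 normalized counts as a floor, a replicate block, log2 total count or the age label as a term, an added log2 difference of 1.2, leaving out each sample and, chosen after seeing the data, voom weights on recovered counts and a non-overlap count among genes with more than 3 counts in all samples. Promoters were taken from RefSeq. Some results are not reported here.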

Additional observations from a re-analysis of the deposited data

Results flagged for a closer look

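In 82 groups of 4 C1 or 4 pan values of the named genes, 6 held a sample whose gap to the nearest other one was large for the group's range by Dixon's test. Chance flags about 1 in 20 groups, or 4.1 of 82. In C1 replicate 4, Cxcl1 had a log2 level of 7.29 (362 counts), against 4.13 to 4.55 in the other C1 samples, and this sample was also the highest C1 sample for Cxcl2 (4.15) and Tnfaip3 (10.14). Ccl19 was at 3.58 in C1 replicate 2 (17 counts), with the others at 4.34 to 4.46. Il1a was at 8.56 in C1 replicate 3, where the others had 9.05 to 9.12. Irf1 was at 12.30 and Arg1 at 11.44 in pan replicate 1, the sample with the lowest total count, where the other pan samples had 12.66 to 12.70 and 11.91 to 11.95. Tgfbr1 was at 11.82 in pan replicate 4, against 12.39 to 12.45 in pan replicates 1 to 3. Their causes were not tested.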

How the results depend on the processing

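The count of 1 gene at an adjusted p of 0.05 was 0 with a mean-dependent or robust prior variance, median centring, all 3 groups in one fit, total count as a covariate, the age label as a term and voom weights, and 0 to 1 when 1 sample was left out. It stayed at 1 in 6 other settings, but not for the same gene: Il15 without moderation (adjusted p = 0.0275 from limma), among well-detected genes (0.0313) and with a floor of 20 normalized counts (0.0103), Fasl without pan replicate 2 (0.0265), and Pik3c2g without pan replicate 4 (0.0369) and with the replicate block (0.0494). With the added difference of 1.2, Pik3c2g was again the 1 gene. The replicate numbers do not pair the samples: deviations of same-numbered samples correlated at 0.49, 0.00, -0.03 and 0.53, and not every sample correlated best with its own number.

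Genes without overlap numbered 20, and 12 after centring, 10 among well-detected genes, 12 with the floor, 11 of the 146 genes with more than 3 counts in all samples, and 25 to 50 with 1 sample left out, where fewer samples overlap less often by construction (50 without pan replicate 4, 38 without C1 replicate 1 and 37 without pan replicate 2). The median difference over all genes was 0.10 after centring and 0.14 to 0.34 with 1 sample left out.

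Of the named genes, some turned direction. With the age label as a term, so that C1 is compared with pan replicate 4, Il1a came to 0.043, Ptger4 to -0.064, Tlr3 to -0.059, Tollip to 0.18, Ccl21a to -0.024, Nod1 to -0.035, Tgfbr1 to 0.26, Cd55 to 0.39, Hspb1 to -0.13, Daxx to 0.10, Nfe2l2 to 0.11, Cdc42 to 0.19, Prkcb to 0.19 and Hmgn1 to 0.11. With total count as a covariate, Ptger4 came to -0.032, Tollip to 0.065, Tgfbr1 to 0.040, Cd55 to 0.067, Hspb1 to -0.0060, Cdc42 to 0.0027 and Hmgn1 to 0.048. After centring, Ptger4 came to -0.025, Il18 to -0.045, Irf1 to -0.0040, Map2k1 to -0.12 and Hif1a to -0.12. With 1 sample left out, Ptger4 ranged from -0.034 to 0.20, Map2k1 from -0.054 to 0.065, Hif1a from -0.035 to 0.066 and Hmgn1 from -0.054 to 0.023. The cause was not tested. The rest of the 41 genes named by the rule kept their direction in the settings run. Of genes named besides these, for example, Rela came to 0.22 and Mapk3 to -0.050 with the age label as a term, and Nfkb1 to -0.10 after centring and -0.014 without pan replicate 1. Tests for counts (edgeR, DESeq2) were not run, since the tables hold log2 values, and voom weights on the recovered counts were used instead. The median standard error of a difference was 0.41 for low genes and 0.23 for well-detected genes, which limits what could be seen.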

Other observations

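The remaining lists gave these values for C1 minus pan, on the log2 scale. Of the 18 CC chemokines and receptors 17 were higher with C1 (94.4%, beside 73.0% of all genes and 82.9% of low genes). The median was 0.54, and it was 0.26 with total count as a covariate and 0.24 against pan replicate 4 alone. Of these genes 1 was well detected, the lymphatic chemokine Ccl21a. Its log2 levels were 7.69, 7.47, 6.72 and 7.61 with C1 and 6.02, 5.53, 6.82 and 7.40 with pan, a difference of 0.93 (95% interval -0.01 to 1.87) that was -0.02 against pan replicate 4 alone. The 9 CXC chemokines and receptors had a median of -0.02, with Cxcr4 higher by 1.09 (95% interval 0.02 to 2.16) at few counts, and by 0.42 against pan replicate 4 alone. The 21 T cell and helper cytokine genes, 0 of them well detected, had a median of 0.11, which was -0.03 after centring. Ifng, interferon gamma, was higher with C1 than with pan without overlap by 0.86, while its vehicle levels of 3.59, 4.2 and 4.04 lay above all C1 samples (1.85 to 3.25) and all pan samples (1.29 to 1.70). These levels rest on few counts: 1, 1, 1 and 10 with pan, 3, 8, 7 and 22 with C1, and 6, 8 and 10 with vehicle. Pan replicates 1 to 3 were thus at the lowest value listed.

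Medians were 0.25 for the 20 other cytokines and growth factors and 0.13 for the 19 transcription factors (0.00 after centring). For the 6 genes of the Nrf2 pathway the median was 0.31, and it was 0.10 against pan replicate 4 alone and 0.02 with total count as a covariate. It was 0.05 for the 17 genes of G proteins, phospholipases and the cytoskeleton (-0.09 after centring) and 0.04 for the 6 genes of matrix proteases and alarmins (-0.10 after centring). Tcf4, an E-protein transcription factor, did not overlap as deposited between C1 (8.26 to 8.6) and pan (7.97 to 8.24), and vehicle lay at 8.24 to 8.26. Csf2, which encodes GM-CSF, was lower with C1 by 0.91 (95% interval -1.63 to -0.19), with 1, 3, 6 and 3 counts in the C1 samples and 1, 2, 1 and 10 in the pan samples.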
